A study of Rattus norvegicus with 6 samples.

Results

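A set of 10 receptor genes of the macrophage surface was followed through the lidocaine treatment of rat dorsal root ganglion cultures. The 10 genes are Msr1, Cd36, Cd163, Mrc1, Mrc2, Clec4a1, Clec4a2, Tlr2, Ms4a4a and Ms4a6e, and they were taken by symbol from the 2125 genes that the deposited tables list. Each symbol matched 1 row. The choice was made from their difference between the groups, so that difference is given here as a description with no test of any of the 10.

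Cells were cultured from the ganglia of Sprague Dawley rats weighing 120 g and were kept in neurobasal medium with B-27. In the lidocaine group (3 libraries) they were exposed to 5 mM lidocaine hydrochloride, a sodium channel blocker used for local anaesthesia, for 24 hours. In the control group (3 libraries) they stayed untreated. The labels call the cells neurons and do not say whether replicates came from separate cultures or animals, so the spread between libraries may be technical. The tables hold only genes that the authors had selected, and in the authors' deposited table the smallest absolute log2 fold change was 1.00 and the largest p-value 0.0499. Recovered reads in these genes numbered 2453051 to 2631083 in the lidocaine and 2710887 to 3592141 in the control libraries. These totals cover the listed genes alone, so the depth of the whole libraries is unknown.

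Macrophages use scavenger receptors to bind and engulf modified lipoproteins, cell debris and protein complexes, and C-type lectins to bind sugars or to restrain activation. Toll-like receptors sense microbial molecules at the same surface, and Ms4a proteins are tetraspan membrane proteins that associate with other receptors. Resident macrophages lie around sensory neurons in the ganglion, and such cells are carried into a culture together with glia, fibroblasts and vascular cells.

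All 10 receptors were lower in every lidocaine library than in any control library. The same held for 67.2% of the listed genes, and the members had been chosen on this contrast, so nothing is read from that count. The depth of the loss differed widely between the receptors. Ms4a4a, Ms4a6e and Clec4a2 had no read in any lidocaine library, Cd163 and Clec4a1 kept a few reads, and Mrc2 kept 36.7% of its control level. The median log2 difference was −4.11 over the 10 receptors (range −7.21 to −1.46) and −1.31 over all listed genes. With the members at 0 set to a floor of 3 counts per library, the median of the 10 was −3.41 as log2 of the ratio of means. Fewer macrophages and less receptor RNA per macrophage cannot be told apart in these bulk libraries.

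**Figure D1:**
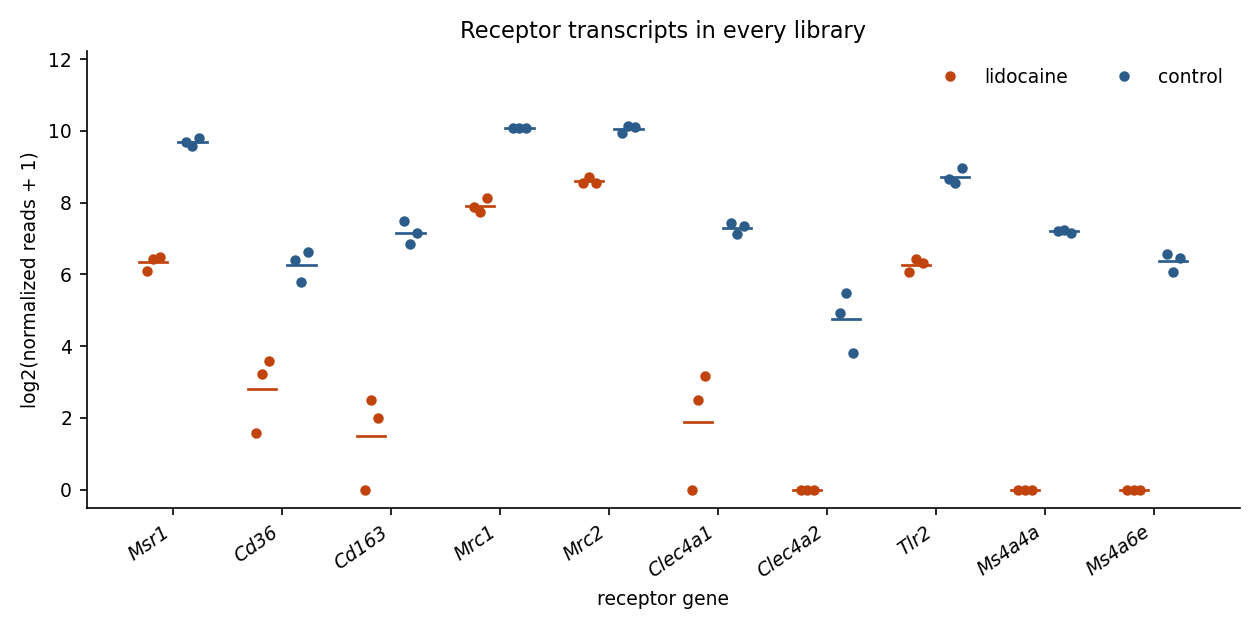
Normalized reads of the 10 receptor genes on a log2 scale with 1 added, 1 point per library and a line at the mean of 3, lidocaine left of control. The points of Clec4a2, Ms4a4a and Ms4a6e lie at 0 in all 3 lidocaine libraries, whereas Mrc1 and Mrc2 stay above 7 on this scale.

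Neither Ms4a receptor had a read left. Ms4a4a, found on macrophages in human and mouse and a partner of the lectin Dectin-1 there, was at 0 normalized reads in all 3 lidocaine libraries, against 148, 149 and 142 in the control libraries. The control values lay close together (147 ± 3.69, SD, n = 3), and against the floor of 3 counts per library Ms4a4a was at least 49.9-fold lower, with at most 2.01% left. Ms4a6e was at 0 in all 3 lidocaine libraries as well, against 93.3, 66.3 and 87.2 normalized reads in the control libraries (82.3 ± 14.2, SD, n = 3). It was at least 28.0-fold lower, with at most 3.57% left. The symbol Ms4a6e is an older name of the gene Ms4a6bl1 in the reference gene table (assembly GRCr8), which also gives Ms4a6bl as a name of that gene, whereas the deposited table holds Ms4a6e and Ms4a6bl as separate rows. The sources used here do not say how reads shared by such close copies were counted, so the level of Ms4a6e is uncertain.

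Of the Clec4a lectins, 1 was at 0 and the other nearly lost. Clec4a2, a lectin of the dendritic cell immunoreceptor group, was at 0 in all 3 lidocaine libraries, against 29.6, 43.8 and 13.0 normalized reads in the control libraries. It had the fewest control reads of the 10 genes and the widest control spread, with a coefficient of variation of 53.4% against 0.694% for Mrc1. Its loss is therefore bounded loosely, at least 9.81-fold with at most 10.2% left. Clec4a1, a lectin of the same group, had 0, 4.68 and 8.03 normalized reads in the lidocaine libraries, against 172, 140 and 162 in the control libraries. The 13 recovered lidocaine reads stood against 477 control reads, which leaves 2.66% of the control level (95% exact conditional binomial interval 1.405% to 4.59%). Intervals of this kind cover counting error only.

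Of the scavenger receptors, Cd163 was nearly lost and Cd36 and Msr1 kept under 10%. Cd163, the receptor for haemoglobin bound to haptoglobin, had 0, 4.68 and 3.01 normalized reads in the lidocaine libraries, against 180, 114 and 141 in the control libraries. That leaves 1.76% (interval 0.756% to 3.50%) from 8 and 443 recovered reads. Cd36, a class B scavenger receptor for oxidised lipoproteins, fatty acids and thrombospondin, had 2.00, 8.42 and 11.0 normalized reads in the lidocaine libraries, against 82.8, 54.5 and 98.2 in the control libraries. Its share left was 8.98% (interval 5.52% to 13.9%), and the groups lay far apart in spite of the spread within each. Msr1, the class A scavenger receptor, had 67.0, 86.1 and 88.3 normalized reads in the lidocaine libraries, against 831, 770 and 892 in the control libraries. Its 247 lidocaine reads make the share left, 9.66%, much tighter (interval 8.44% to 11.0%).

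Tlr2, the sensor of bacterial lipopeptides that pairs with Tlr1 or Tlr6, had 66.0, 85.1 and 79.3 normalized reads in the lidocaine libraries, against 401, 376 and 500.2 in the control libraries. Its share left was 18.0% (interval 15.6% to 20.7%), a 5.55-fold difference.

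The mannose receptor family was the best kept. Mrc1, the mannose receptor CD206 of macrophages, had 235, 213 and 279 normalized reads in the lidocaine libraries, against 1089, 1090.3 and 1077 in the control libraries, and 22.3% was left (interval 20.5% to 24.1%). Mrc2 (Endo180) takes up collagen and is used by fibroblasts as well as macrophages. It had 376, 415 and 374 normalized reads in the lidocaine libraries, against 987, 1121 and 1098 in the control libraries, a 2.73-fold difference (interval 2.55 to 2.92). Mrc1 and Mrc2 together made up 76.9% to 81.9% of the summed normalized reads of the 10 genes in the lidocaine libraries, against 51.6% to 56.3% in the control libraries. That sum was 746 to 843 in the lidocaine and 3924 to 4211 in the control libraries.

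**Figure D2:**
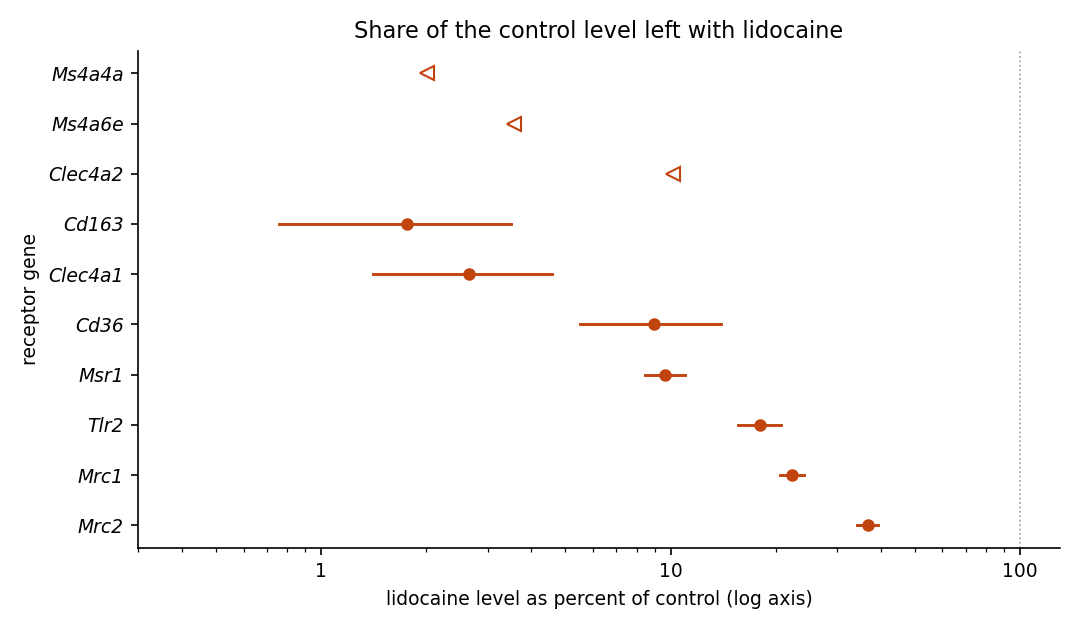
Lidocaine level as percent of the control level for each receptor on a log axis, points with 95% exact conditional binomial intervals. Open triangles mark the upper limit for the 3 genes with no lidocaine read, set by a floor of 3 counts per library, and the dotted line is the control level. The shares left run from 1.76% for Cd163 to 36.7% for Mrc2.

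Ranked by the share left, the 7 receptors with lidocaine reads were Cd163, Clec4a1, Cd36, Msr1, Tlr2, Mrc1 and Mrc2. Neighbours in that order whose single lidocaine libraries overlapped were Cd163 and Clec4a1, Clec4a1 and Cd36, Cd36 and Msr1, and Tlr2 and Mrc1. Msr1 and Tlr2 did not overlap, with 8.03% to 10.6% left per lidocaine library for Msr1 and 15.4% to 19.9% for Tlr2. Mrc1 and Mrc2 did not overlap either, with 19.7% to 25.7% for Mrc1 and 35.2% to 39.1% for Mrc2. The 3 genes at 0 have only upper limits and cannot be ranked among the lowest. In all, 3 of the 10 receptors were at 0 in every lidocaine library, against 4.24% of all listed genes, a share that describes genes picked for their loss.

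The libraries of a group did not rank alike for all receptors. Lidocaine replicate 1 was the lowest of its group in 5 of the 7 receptors with reads, and it was the library in which Cd163 and Clec4a1 were at 0, so that 5 receptors were at 0 there and 3 in each of the other lidocaine libraries. Without it, Cd163 had 2.61%, Clec4a1 3.94% and Cd36 12.1% left. The shares moved the other way, to 1.01% left for Cd163 without lidocaine replicate 2 and 1.51% for Clec4a1 without lidocaine replicate 3. Macrophage markers had their lowest lidocaine value in lidocaine replicate 1 in 8 of 12 genes. Among the controls, replicate 2 was lowest in 6 of 10 receptors and in 9 of 12 macrophage markers, and highest in the receptors Mrc1, Mrc2, Clec4a2 and Ms4a4a. How often each library was lowest over all listed genes is not given here. These counts are therefore not read as particular to macrophage genes.

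FPKM values, which scale fragments by transcript length and library size, allow the receptors to be set against each other. In control libraries Mrc1 had the highest FPKM (4.26 ± 0.0270, SD, n = 3), followed by Mrc2 (3.94 ± 0.278), Tlr2 (3.35 ± 0.523), Msr1 (2.89 ± 0.214) and Ms4a4a (2.85 ± 0.0733). Mrc1 did not overlap with Mrc2, whereas each of the next 3 pairs of neighbours down to Ms4a4a overlapped. Clec4a1 (1.98 ± 0.207), Ms4a6e (1.20 ± 0.203), Cd163 (0.694 ± 0.157), Clec4a2 (0.452 ± 0.247) and Cd36 (0.155 ± 0.0434) were lower, and of these only Cd163 and Clec4a2 overlapped as neighbours. Ms4a4a thus stood in control at a level per length like that of Msr1 and was the one of that pair with no read after lidocaine. In the lidocaine libraries Mrc2 came first (1.45 ± 0.0925 FPKM, SD, n = 3), above Mrc1 (0.964 ± 0.129) and Tlr2 (0.614 ± 0.0770). The FPKM ratio of Mrc2 to Mrc1 was 1.26 to 1.84 in the lidocaine libraries and 0.852 to 0.967 in the control libraries. Cd36 had 511 normalized reads per unit of FPKM and Ms4a4a 51.4, a number that grows with the transcript length the authors used, so that Cd36 is lowest by FPKM but not by reads.

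**Figure D3:**
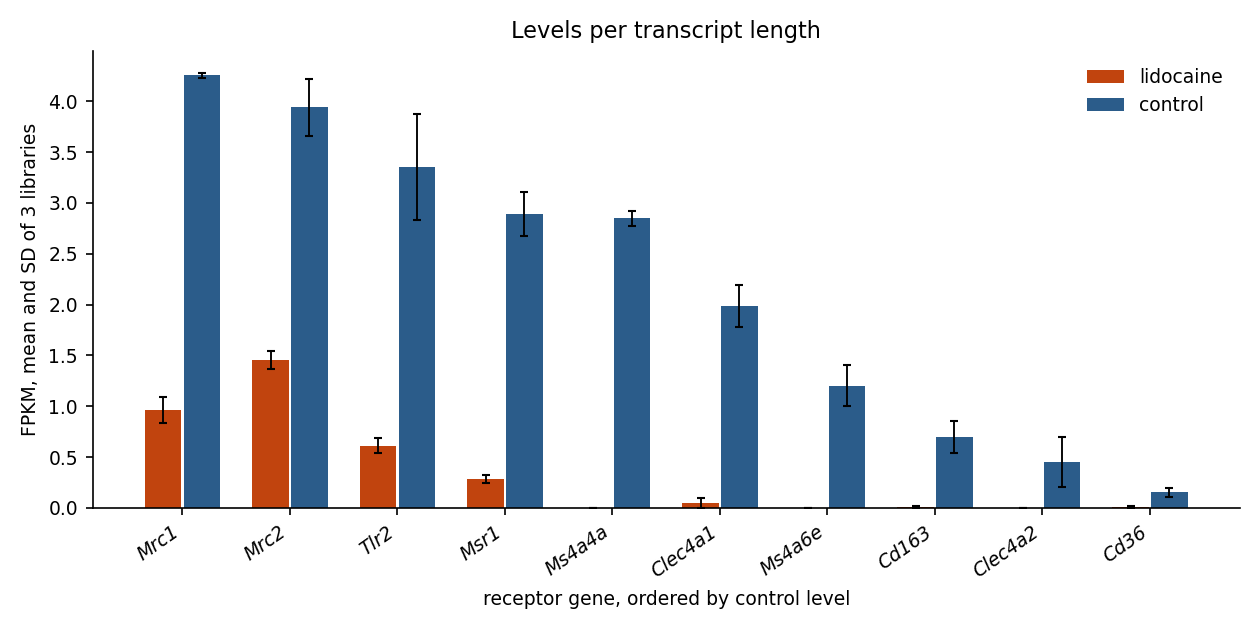
FPKM of the 10 receptors, bars at the mean and error bars of 1 SD over 3 libraries, lidocaine left of control, ordered by the control level. Mrc1 is highest in control at 4.26 and Mrc2 is highest with lidocaine at 1.45.

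The loss could be set beside other receptors of the same families. By limma at an adjusted p under 0.05, 99.5% of the 1851 genes tested were called, 68.6% lower and 30.9% higher. Without a test, 69.8% of all listed genes had a lower group mean with lidocaine. As the authors had selected every listed gene as changed, these calls are no independent evidence. All 7 listed Ms4a genes were lower. Outside Ms4a4a and Ms4a6e, 5 of 22 Ms4a and related genes were listed, 4 of them called lower and 0 higher (median log2 difference −3.16). Ms4a7 had 1.62% left (interval 0.330% to 4.80%), Ms4a6bl 2.05% (0.818% to 4.27%) and Ms4a6a 10.9% (7.91% to 14.6%), while Ms4a6c kept 46.8% (32.5% to 66.7%). Ms4a7 is the next gene beside Ms4a4a in the reference gene table. Reads of the Ms4a6 genes carry the same doubt as those of Ms4a6e.

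Clec4a1, Clec4a3, Clec4a2 and Clec4a are consecutive genes in that table, and all 4 were listed. Clec4a3 had 3.64% left (interval 1.65% to 7.03%), and Clec4a was at 0 in all lidocaine libraries, against a mean of 15.2 normalized reads in control, which allows at most 19.4%. Of 35 C-type lectins outside the members 15 were listed, 11 of them called lower and 2 higher (median −2.02). Cd302 kept 42.0%, Clec2g 47.0%, Clec14a of endothelium 25.1% and Clec10a, a macrophage galactose lectin, 9.27%. Clec4d and Clec4e, activating receptors that sense mycobacterial glycolipids, were the 2 called higher and were picked for mention after their values were seen. Clec4d had 35, 41.2 and 37.1 normalized reads in the lidocaine libraries, against 11.3, 11.8 and 12.0 in the control libraries. Clec4e had 17.0, 24.3 and 51.2 in the lidocaine libraries, against 8.72, 0 and 5.01 in the control libraries.

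**Figure D4:**
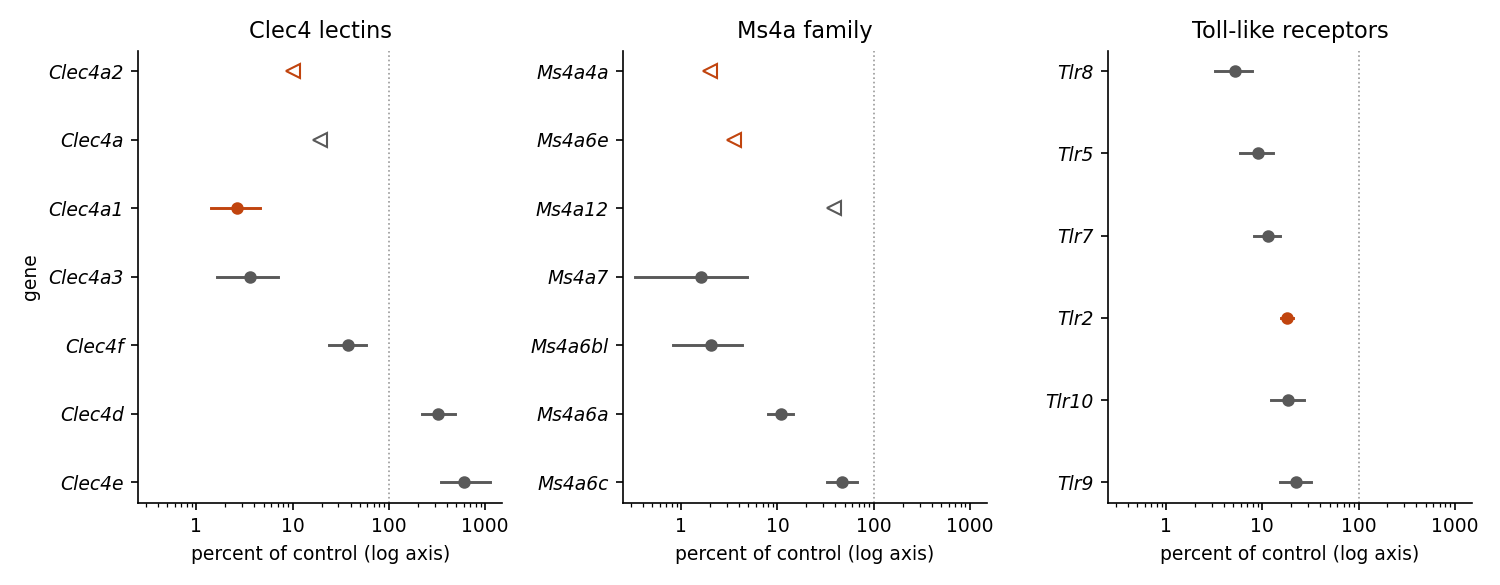
Lidocaine level as percent of control on a log axis for every listed Clec4, Ms4a and Toll-like receptor gene, with 95% exact conditional binomial intervals. Red marks the receptors followed here, grey the other genes, open triangles upper limits of genes with no lidocaine read, and the dotted line the control level. Clec4d at 323% and Clec4e at 611% lie above control and all the others below it.

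Of 27 other Toll-like receptors and partners 8 were listed, all 8 called lower (median −2.73). Tlr8 had 5.18% left (interval 3.25% to 7.88%), Tlr5 8.92% (5.88% to 13.1%) and Tlr7 11.4% (8.22% to 15.4%), each with an upper counting limit under the lower one of Tlr2 at 15.6%. The single lidocaine libraries of Tlr7 nevertheless overlapped with those of Tlr2, reaching 17.9% left for Tlr7 and down to 15.4% for Tlr2. Tlr9 with 22.5% left (15.5% to 32.0%) and Tlr10 with 18.6% (12.3% to 27.2%) lay above the 18.0% of Tlr2, with intervals that overlapped its own. Lbp, a binding protein for lipopolysaccharide, kept 44.7%. The Tlr2 partners Tlr1 and Tlr6 were not among the listed genes and have no value here. Of 19 other scavenger receptors 7 were listed, all called lower (median −1.21, close to the −1.31 of all listed genes). Stab1, stabilin-1 of macrophages and endothelium, had 3.48% left (interval 2.89% to 4.17%), below Msr1, while Megf10 kept 35.1%, Scara3 28.2% and Scara5 48.8%. Of 18 siglecs and galectins 5 were listed and called lower (median −1.27), with 49.7% left of Lgals9, 40.4% of Siglec1, 27.1% of Mag and 48.8% of Siglec5. Of 19 genes for the uptake of apoptotic cells 3 were listed and called lower (median −1.82), namely Gulp1 with 26.5%, Tyrobp with 28.0% and Havcr2 with 43.5% left.

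Genes that act beside single receptors did not all go the same way. Of 12 genes of heme and iron handling 2 were listed. Hmox1, which breaks down the heme that Cd163 brings in, was called higher at 6.22-fold, and Hpx, the heme carrier hemopexin, was called lower with 44.6% left. Of 17 genes of lipid handling 2 were listed, Fabp4, a fatty acid carrier, called higher at 2.83-fold and Lyn, a kinase of myeloid receptors, called lower with 44.3% left. Of 13 genes of collagen uptake and turnover 5 were listed, 4 called lower and 1 higher (median −1.61). Col4a1 had 32.8%, Col1a1 34.5% and Col3a1 11.6% left, and Plau, the urokinase that works with Mrc2, was called higher at 2.06-fold. Mrc2 itself, at 36.7%, lay nearest to Col1a1 among these.

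Markers of several cell types moved with the receptors. Of 16 macrophage markers 12 were listed and all were called lower, against 68.6% of all genes tested. Cd14, Cd53, Cd68 and Itgam have no value here, since only genes the authors selected as changed were listed. The 12 listed markers had 2.08% to 28.0% left. Their summed level was 1128 to 1250.02 normalized reads in the lidocaine libraries and 10662 to 11274 in the control libraries. None was at 0 in every lidocaine library. C1qb kept 2.08%, C1qc 2.74%, C1qa 7.56% and Lyz2 15.3%, so that the macrophage markers spanned much of the range of the receptors, and Mrc2 lay above all 12. The listed fibroblast markers (3 of 6) summed to 22223 to 22919 normalized reads in the lidocaine and 92083 to 100037 in the control libraries, and the endothelial ones (5 of 6) to 1800 to 1993 in the lidocaine and 6134 to 6628 in the control libraries. Schwann cell markers (3 of 6) kept 24.8% and satellite glia markers (3 of 5) 31.7% of their summed control level. Of 8 neuronal markers only Elavl4 was listed, with 50.1% left, and of 7 lymphocyte markers 4, of which Cd2 was called higher at 2.28-fold. Among these markers, Tyrobp was also counted with the uptake of apoptotic cells and Mag with the siglecs. Col1a1 and Col3a1 were also counted with collagen turnover, so their values there are the same ones given again. Which cells carried each receptor, and what part the loss of these cells had in the result, was not tested.

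**Figure D5:**
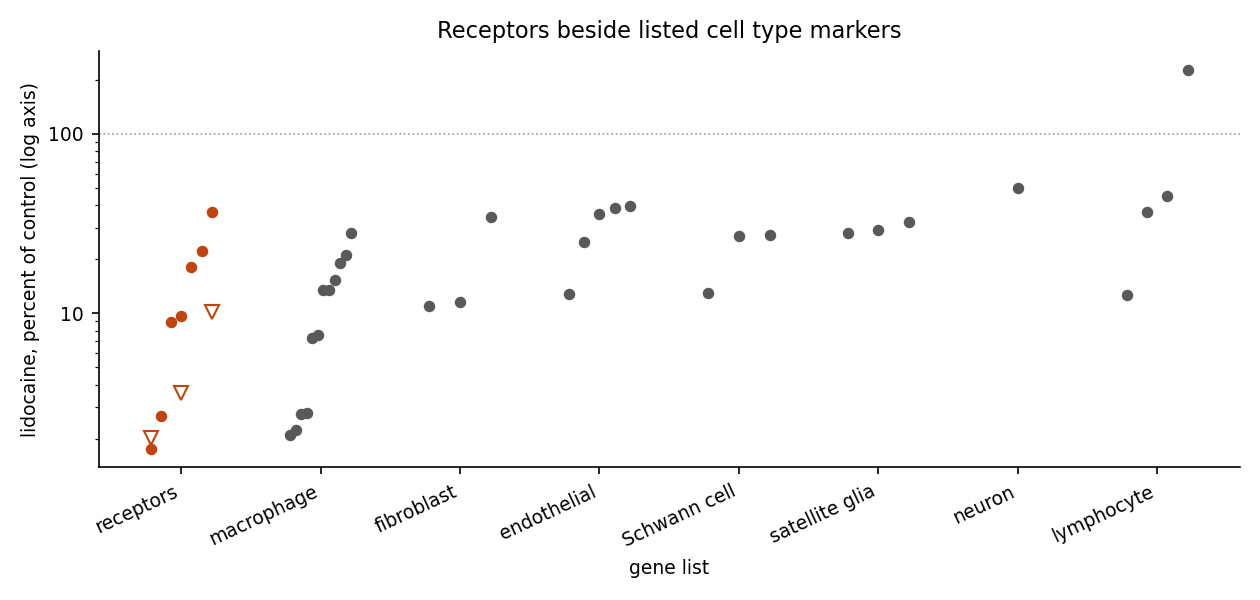
Lidocaine level as percent of control on a log axis for the receptors (red; open triangles are upper limits) and for each listed marker gene of 7 cell types (grey), 1 point per gene, dotted line at the control level. The receptors and the 12 macrophage markers share their range from 2.08% upward, and Mrc2 lies above every macrophage marker.

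The deposited annotation gives a pathway to only some of the receptors. Cd36, Mrc1, Mrc2, Msr1 and Tlr2 are the 5 with a pathway entry, and all 5 are annotated to the phagosome. They are also the 5 with reads in every lidocaine library, whereas the 5 with no entry, Cd163, Clec4a1, Clec4a2, Ms4a4a and Ms4a6e, were at 0 in at least 1 of them. The observed shares divided the same way, with at most 2.66% left (Clec4a1) without an entry and at least 8.98% (Cd36) with one. This division was noticed after the values were seen. Mrc1, Mrc2, Msr1 and Tlr2 also had the highest control means of the receptors (426 to 1085 normalized reads). Cd36 had a control mean of 78.5 and the 5 without an entry 28.8 to 158. Whether annotation or control level goes with reaching 0 was not tested. The upper limit of Clec4a2 (10.2%), set by the floor of 3 counts per library, lies above Cd36 and Msr1 (9.66%). That floor is not a counting interval like those of Cd36 and Msr1, so Clec4a2 is not ranked against them here. Carbohydrate binding is annotated for Clec4a1, Clec4a2, Mrc1 and Mrc2. This term thus covers Clec4a2, at 0 in every lidocaine library, and the best kept receptor, Mrc2, alike.

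The 5 genes outside the receptors whose 6 log2 values lay nearest to the median profile of the receptors were Vcam1, Ctgf, RT1-DMb, Dcx and Col14a1, at Euclidean distances of 0.725 to 0.869 over 6 libraries. They were chosen among 1026 listed genes with a plain symbol and a control mean of 100 normalized reads or more. Vcam1 kept 6.44%, Ctgf 6.46%, RT1-DMb 6.08%, Dcx 7.47% and Col14a1 5.38% of control. Of the receptors themselves Msr1 (1.39) and Cd36 (1.43) lay nearest to that median profile and Ms4a4a (5.41) farthest.

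Promoter sequences are shown for 4 receptors that share the direction of change and differ in its depth: Ms4a4a and Clec4a2 at 0, Clec4a1 nearly lost and Mrc1 kept best of those with a promoter in the table. RefSeq promoters (build GRCr8, 250 bases before to 50 after the gene start, + strand for all 4) were found for 7 of the 10 receptors. Capitals mark matches on either strand to GAGGAA, the core bound by the myeloid factor PU.1, or TATAAA, the letters of the TATA box. Matching letters alone do not make a marked stretch a TATA box.
Ms4a4a, chr1:217495454-217495753: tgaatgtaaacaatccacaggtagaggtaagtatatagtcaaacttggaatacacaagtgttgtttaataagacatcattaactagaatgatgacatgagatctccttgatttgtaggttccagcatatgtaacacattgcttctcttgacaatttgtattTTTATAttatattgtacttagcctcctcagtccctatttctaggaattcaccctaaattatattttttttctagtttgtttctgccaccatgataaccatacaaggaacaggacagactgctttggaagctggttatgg
Clec4a2, chr4:157934346-157934645: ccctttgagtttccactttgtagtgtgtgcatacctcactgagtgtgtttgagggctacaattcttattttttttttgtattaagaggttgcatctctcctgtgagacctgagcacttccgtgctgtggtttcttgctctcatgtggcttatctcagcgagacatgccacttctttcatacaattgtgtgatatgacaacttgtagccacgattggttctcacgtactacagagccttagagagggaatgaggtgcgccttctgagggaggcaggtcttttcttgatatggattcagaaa
Clec4a1, chr4:157845561-157845860: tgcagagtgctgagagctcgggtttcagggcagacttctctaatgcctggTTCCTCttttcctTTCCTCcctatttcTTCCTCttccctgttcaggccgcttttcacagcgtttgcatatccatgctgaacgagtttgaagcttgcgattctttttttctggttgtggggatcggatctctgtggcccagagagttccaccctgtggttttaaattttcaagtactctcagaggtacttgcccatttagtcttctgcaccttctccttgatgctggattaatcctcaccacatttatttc
Mrc1, chr17:82157475-82157774: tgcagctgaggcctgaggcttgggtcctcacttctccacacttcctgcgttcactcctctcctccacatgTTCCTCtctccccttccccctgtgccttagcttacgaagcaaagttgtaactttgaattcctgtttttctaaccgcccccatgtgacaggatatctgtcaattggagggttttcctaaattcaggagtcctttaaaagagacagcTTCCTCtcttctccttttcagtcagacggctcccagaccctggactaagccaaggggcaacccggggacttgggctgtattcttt

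GAGGAA occurred 3 times in the Clec4a1 window and 2 times in that of Mrc1, in each case on the reverse strand as TTCCTC, and 3 of the 7 receptor promoters held it (Cd36, Clec4a1 and Mrc1), against 27.6% of 33469 promoters of this length. TATAAA was found in 2 of the 7 (Ms4a4a and Cd36), against 14.2% of all. Both matches were on the reverse strand as TTTATA, at −89 from the gene start in Ms4a4a and −175 in Cd36. The AP-1 motif TGANTCA and the C/EBP motif TTGCNNAA were in 0 of the 7, against 7.33% and 10.6% of all. The 4 motifs were chosen after the values were seen, no marked matches overlap, and a match is not a bound site.

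The authors' scaling sets the size of every share. Rescaling by the median of ratios over the listed genes, of which 1483 were lower, raised the log2 differences by a median of 1.19 and multiplied each share left by 2.27, which gives 83.2% for Mrc2 and 50.6% for Mrc1. All 10 receptors stayed below control under it, and their order does not depend on it.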

How the data were processed

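RNA was sequenced from 6 libraries, 3 lidocaine and 3 control, grouped by sample titles. The submitters' processing notes name Bowtie 0.12.2, DESeq2 and the build rn6 (Rnor_6.0) without their roles, and the sources used here give no annotation, counting tool or strand setting. Genes that overlap on opposite strands therefore cannot be told apart. The authors deposited log2 of normalized reads plus 1 for selected genes, and undoing this gave whole reads for 12750 of 12750 values within 0.02 reads, with 1 factor per library (0.872 to 1.18). The FPKM values were deposited by the authors per the file headers, as were a log2 fold change and a p-value per gene.

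The share left is the ratio of summed recovered reads per summed relative depth, lidocaine over control, with an exact conditional binomial interval (scipy 1.17.1). The 1851 genes whose mean reached 10 normalized reads (all 10 receptors among them) were fitted with limma 3.58.1 in R 4.3.3 on the deposited log2 values (variance trend, two-sided, no replicate block, Benjamini-Hochberg over these genes, threshold 0.05). With 3 libraries a group, the smallest p of an exact permutation test is 0.1. Alternatives covered the pseudocount, filter, scaling, FPKM values, variance trend, threshold, leaving out single libraries and a block for the replicate number. The limma step and the interval were tested on simulated data. The test was planned for log2(normalized value + 1), which the deposited values already were. The authors' group values (4 columns) were not used. No count model was run, since the file holds log2 values of selected genes. From each other list up to 4 genes with the highest control mean were named, and likeness followed the rule given with it. Beside that rule, Clec4a3, Clec4a, Clec4d, Clec4e, Tlr9, Tlr10 and Atp6v0d2 were named after their values were seen. The members and lists were chosen with earlier results of these data known.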

Additional observations from a re-analysis of the deposited data

How the results depend on the processing

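All 10 receptors stayed below control without overlap, and 3 stayed at 0 in every lidocaine library, under every alternative run for these counts, including fewer than 3 recovered reads in place of 0. The median share left over the receptors was 5.82% with the 3 genes at 0 taken as 0% and 9.32% with each of them at its upper limit (an alternative chosen after seeing the data). It was 13.2% after rescaling by the median of ratios and 5.51% in FPKM, and ranged from 4.14% to 7.197% when 1 library was left out. The median log2 difference of −4.11 was −4.65 with a pseudocount of 0.5, −3.06 with a pseudocount of 5, −3.27 after rescaling, −2.60 in FPKM with a pseudocount of 0.1, −3.41 with the floor, −4.74 without Mrc2 (an alternative chosen after seeing the data), and −4.30 to −3.85 with 1 library left out. The cause of these shifts was not tested. The order by FPKM in control was the same without control replicate 1 or 2, and 8 of 10 ranks held without replicate 3. Over all genes tested, 1841 were called, 1269 of them lower. A filter at a mean of 100 left fewer genes to test and gave 1068 calls, 687 lower. Rescaling gave 1142 calls with 592 higher and 550 lower, since it centres selected genes. Leaving out 1 library gave 1767 to 1806 calls, with 1204 to 1248 lower.

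The replicate block gave 1842 calls. Same-numbered libraries deviated from their group means with correlations of −0.03, 0.01 and 0.06. The highest correlation of any lidocaine with any control library was the 0.06 of replicate 3. With 3 libraries a group, such values cannot tell whether the numbers pair the samples. Few reads limit Clec4a2, Cd36, Cd163 and Clec4a1. Genes the authors left out have no value here.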

Other observations

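The phagosome annotation shared by 5 of the receptors was carried by 32 listed genes. RT1-DMb is among them more than once, and the 5 receptors had been chosen for their loss. Of the 32, 31 were lower with lidocaine, against 69.8% of all listed genes. The exception was Atp6v0d2, a subunit of the vacuolar proton pump, with a mean of 36.6 normalized reads in lidocaine and 3.51 in control libraries. This set was picked after its values were seen and had no test.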
